A study of Mus musculus with 6 samples.

Results

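The genes described here are Trp53, which encodes the transcription factor p53, and 9 well known p53-induced genes of growth arrest and feedback: Cdkn1a, Mdm2, Ccng1, Trp53inp1, Phlda3, Btg2, Gdf15, Plk2 and Sesn1. They were chosen by gene symbol, with earlier results of these data known, so shares among them are not independent of the data. All 10 were found among the 51826 gene rows and passed the filter on low counts, with 16071 genes tested in all. The RNA was that of mouse bone marrow neutrophils exposed to microvesicles, which are membrane particles shed by cells. The donors of the particles were Hepa1-6 mouse liver cancer cells, and in both groups the donors had been deprived of glucose. In the Ctrl_MV group (3 libraries) the donor cells were wild type, and in the KD_MV group (3 libraries) their ezrin, a protein that links the membrane to actin, had been knocked down. The labels give no strain, age, sex, exposure time or knockdown method, do not say how many animals were pooled, and do not call the replicates separate cultures. What a p-value measures here is therefore spread among 6 libraries, which may be technical. No library of neutrophils without microvesicles was analysed here. All fold changes and log2 changes (log2 fold changes) below are KD_MV relative to Ctrl_MV. All 10 genes are protein-coding in GENCODE M21, and positions are on mm10.

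The p53 protein is held at a low level by Mdm2, a ubiquitin ligase whose gene p53 itself induces, and it is stabilised when DNA damage, nucleolar stress or other insults loosen that hold. Stabilised p53 switches on a cyclin-dependent kinase inhibitor, p21, the product of Cdkn1a, along with genes that feed back on p53, slow growth or start cell death. Several of these genes are also induced without p53, for example Gdf15 by the integrated stress response and Btg2 and Plk2 by growth factor and stress signals. Neutrophils leave the cell cycle as they mature, and they are short-lived cells.

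Each library held between 37346055 and 42043434 counts. The libraries of a group differed from each other by more than sampling noise (chi-square per degree of freedom 20.3 to 97.8), and KD_MV replicate 3 differed most from the others of its group (93.0 and 97.8, against 20.3 between replicates 1 and 2). The preparations held RNA of other cell types, and its amount moved with the groups. Summed levels of 10 neutrophil markers were 10829 to 11596 CPM (counts per 1e+06 of the TMM-scaled library) in Ctrl_MV and 5890.1 to 7515 CPM in KD_MV, with 5 of the 10 lower and none called higher in edgeR's test. Lcn2 made up most of that sum, at a mean of 8794 CPM in Ctrl_MV and 4801 CPM in KD_MV. Also called lower were Csf3r (means of 327 and 183 CPM), Camp (108 and 28.8 CPM), Cxcr2 (9.62 and 5.45 CPM) and Retnlg (2.48 and 0.490 CPM). The markers S100a8 (499.9 and 509 CPM), S100a9 (1194 and 982 CPM), Mmp8 (249.7 and 288 CPM), Ltf (33.3 and 34.4 CPM) and Ly6g were not called. None of these 10 was at 0, but the defining surface marker Ly6g was near it, at a mean of 2.29 CPM in Ctrl_MV and 1.86 CPM in KD_MV. Summed erythroid markers went from 106099 to 123274 CPM in Ctrl_MV down to 9066 to 10638 CPM in KD_MV. B-lineage markers ran from 812 to 1005 CPM against 1728 to 1813 CPM, eosinophil markers from 29.2 to 32.0 CPM against 458 to 635 CPM, and granulocyte precursor markers from 30.2 to 34.0 CPM against 58.3 to 66.7 CPM. Monocyte and macrophage markers ran from 1122 to 1356 CPM against 754 to 857 CPM, hepatoma markers from 30.1 to 42.9 CPM against 9.91 to 14.1 CPM, and T and NK cell markers from 39.1 to 47.0 CPM against 36.7 to 43.7 CPM. In the same test 8 of 10 erythroid markers were lower, 5 of 8 B-lineage and 5 of 8 eosinophil markers were higher, and 6 of 7 precursor markers were higher and 1 lower. The eosinophil markers called higher were Prg2 (means of 12.7 and 274 CPM), Epx (3.10 and 75.7 CPM), Ear1, Ear2 and Ear6. Siglecf (1.54 and 2.35 CPM), Ccr3 (4.02 and 4.12 CPM) and Il5ra (3.95 and 3.34 CPM) were not called. The precursor marker that was lower, Kit (24.4 and 15.7 CPM), made up most of the Ctrl_MV sum. Among those higher, Mpo went from a mean of 0.557 to one of 9.95 CPM. Of 7 tested monocyte and macrophage markers 2 were higher and 2 lower, of 8 T and NK markers 1 was higher and 1 lower, and of 5 tested hepatoma markers 4 were lower. Over all tested genes 27.8% were higher and 24.9% lower. No listed marker was at 0 in all libraries. The part of these cell types in the results below was not tested, and in such bulk samples fewer cells of a type and less RNA per cell cannot be told apart.

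Promoter windows of 300 bases (250 before each annotated start and 50 from it on) were held for 9 of the 10 genes, in 12 windows, from RefSeq on GRCm38.p6, the assembly that mm10 names. Trp53inp1 had none. Because p53 binds pairs of a 10-base element, the p53 decamer, both strands were searched for pairs that lie directly side by side. Such pairs with at most 1 letter off the consensus were found in 29 of 32851 windows of all genes (0.0883%), and both Cdkn1a and Ccng1 were among them. Those windows are shown first, with the pair in capitals. For Cdkn1a it belongs to the upstream of its annotated starts, which lie 2790 bases apart.
Cdkn1a, chr17:29090729-29091028, plus strand: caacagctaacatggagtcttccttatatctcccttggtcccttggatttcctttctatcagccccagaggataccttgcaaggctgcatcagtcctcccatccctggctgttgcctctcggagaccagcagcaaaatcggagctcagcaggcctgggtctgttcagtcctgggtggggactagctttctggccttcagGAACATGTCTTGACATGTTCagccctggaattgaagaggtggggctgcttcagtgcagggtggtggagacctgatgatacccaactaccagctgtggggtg
Ccng1, chr11:40755237-40755536, minus strand: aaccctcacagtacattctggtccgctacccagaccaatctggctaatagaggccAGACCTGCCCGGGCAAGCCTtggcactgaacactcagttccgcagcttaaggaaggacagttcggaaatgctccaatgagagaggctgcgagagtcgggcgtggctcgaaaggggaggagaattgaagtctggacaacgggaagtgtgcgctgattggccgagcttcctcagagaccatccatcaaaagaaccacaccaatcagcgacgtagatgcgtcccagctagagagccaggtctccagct

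The Cdkn1a pair, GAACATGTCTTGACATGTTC, lay 51 to 32 bases before the start, and the Ccng1 pair, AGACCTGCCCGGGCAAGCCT, 195 to 176 bases before it. Each was 1 letter off the consensus. At least 1 decamer with no letter off was present in 8.36% of all windows and in 5 of the 12 windows here, namely those of Trp53, Mdm2 and Ccng1, the upstream Cdkn1a window and 1 of the Sesn1 windows. The upstream Cdkn1a window held both GAACATGTCT, within the pair, and GGACTAGCTT, from base -73 to -64 and not in capitals above. Pairs with bases between the decamers were not searched. The window of Trp53 itself is shown because its RNA did not fall, with its decamer in capitals. The windows of Btg2 and Plk2 are shown because both held the cyclic AMP response element TGACGTCA, in capitals, which 1.79% of all windows and 2 of the 12 windows here contain. No decamer match was found in the Btg2, Plk2, Phlda3 or Gdf15 windows. The element TGATGNAA, bound by ATF4 with C/EBP partners, was found in 0 of the 12 windows and in 3.97% of all windows. Neither TGACGTCA match overlapped a match of another motif. A match is a description of the letters only, and a missing match says nothing of sites elsewhere, such as those of Mdm2, whose known p53 sites lie within the gene.
Trp53, chr11:69580109-69580408, plus strand: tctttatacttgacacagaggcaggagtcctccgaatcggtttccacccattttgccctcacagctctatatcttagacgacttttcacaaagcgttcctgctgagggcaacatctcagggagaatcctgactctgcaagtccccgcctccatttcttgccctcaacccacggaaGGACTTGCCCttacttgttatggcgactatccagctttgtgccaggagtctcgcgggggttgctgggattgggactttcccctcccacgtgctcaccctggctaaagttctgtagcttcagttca
Btg2, chr1:134079106-134079405, minus strand: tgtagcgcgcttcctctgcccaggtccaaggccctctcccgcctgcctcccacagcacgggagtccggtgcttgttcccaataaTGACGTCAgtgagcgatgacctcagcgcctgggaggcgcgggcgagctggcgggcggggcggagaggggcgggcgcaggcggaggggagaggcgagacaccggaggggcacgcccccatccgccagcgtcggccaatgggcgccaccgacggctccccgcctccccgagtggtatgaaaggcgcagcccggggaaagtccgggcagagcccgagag
Plk2, chr13:110394794-110395093, plus strand: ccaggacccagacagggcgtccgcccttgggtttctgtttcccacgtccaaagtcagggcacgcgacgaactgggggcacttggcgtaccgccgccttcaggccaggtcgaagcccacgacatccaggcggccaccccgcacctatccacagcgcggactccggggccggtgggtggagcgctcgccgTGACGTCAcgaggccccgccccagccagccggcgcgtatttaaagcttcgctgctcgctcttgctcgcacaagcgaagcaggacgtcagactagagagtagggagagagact

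The comparison asked how RNA levels in the recipient preparations differed between the 2 kinds of microvesicles. Of the 10 genes, 8 were lower in KD_MV libraries, by 1.98-fold to 4.04-fold, and these were all of the induced genes except Sesn1. Trp53 and Sesn1 did not pass the test. The test was edgeR's quasi-likelihood test with Benjamini-Hochberg adjustment over all 16071 genes, at an adjusted p of 0.05, and it called 24.9% of all genes lower and 27.8% higher. Among the 10 genes 0 were called higher, and 0 were higher at an unadjusted p under 0.05, with DESeq2 or with limma-voom. The median log2 fold change was -1.15 over the 10 genes and 0.03 over all genes tested. In all 10 genes the libraries of the groups did not overlap, 8 being lower and 2 higher in KD_MV, where 29.3% of all genes were lower without overlap and 32.0% higher. Together the 10 genes held 0.448 ± 0.0300% of a Ctrl_MV library's counts and 0.195 ± 0.0136% of a KD_MV library's (SD, 3 libraries each).

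**Figure D1:**
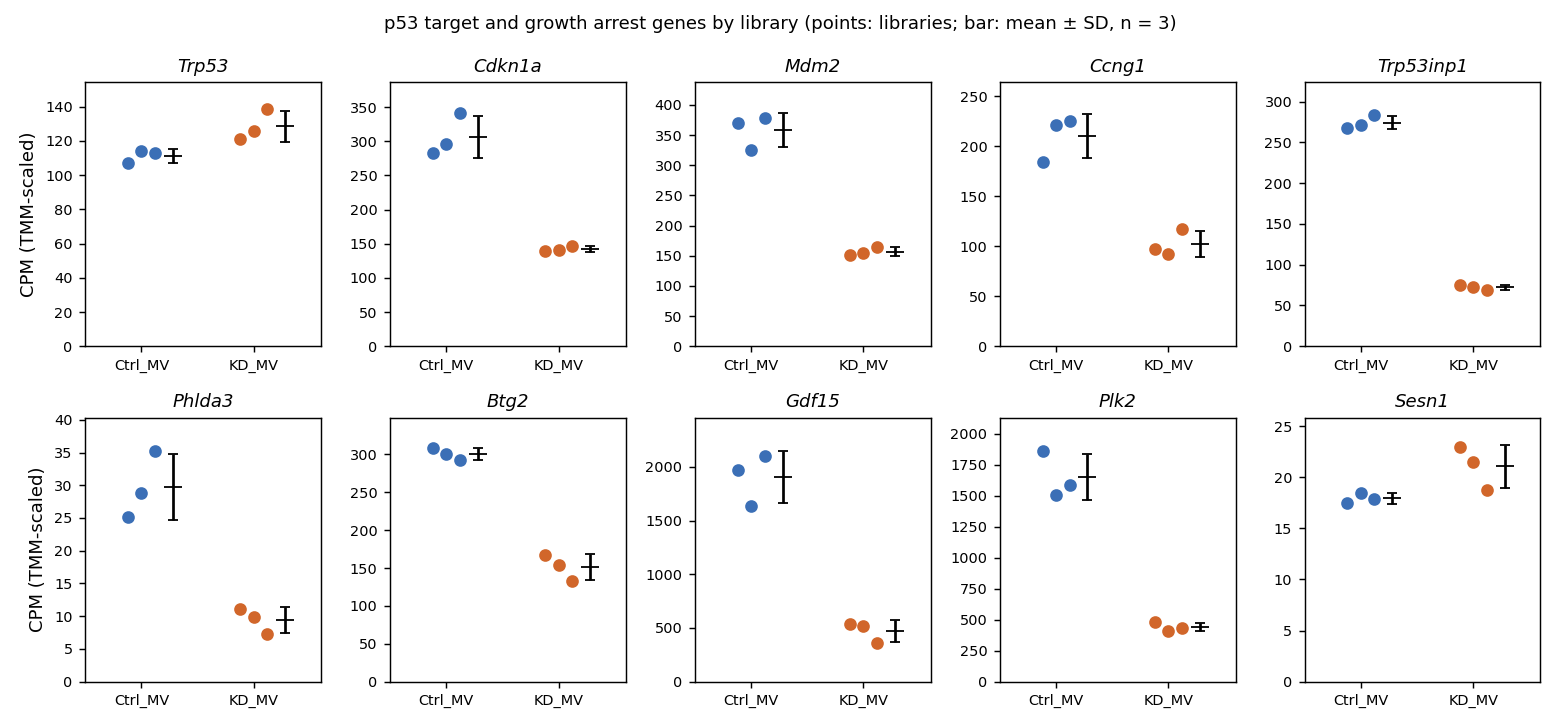
TMM-scaled CPM of the 10 genes in each library, with 1 panel per gene, a linear axis from 0, 1 point per library and the mean ± SD of 3 libraries beside each group. In 8 panels the KD_MV points lie below the Ctrl_MV points, and in the panels of Trp53 and Sesn1 they lie a little above.

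Trp53 (chromosome 11, 69580359 to 69591873, mm10) had 107, 114 and 113 CPM across Ctrl_MV replicates 1 to 3 against 121, 126 and 139 CPM across KD_MV replicates 1 to 3. The KD_MV libraries were all slightly above the Ctrl_MV libraries, and KD_MV replicate 3 was the highest. The means were 111 ± 3.94 and 128 ± 9.05 CPM (SD, n = 3 per group), and the difference did not pass (a log2 change of 0.21, SE 0.09, adjusted p = 0.0941 in edgeR's test). It passed with library size as the only scaling (0.61, adjusted p = 5.52e-04) and with limma on log2(TPM + 1) (0.79, adjusted p = 2.28e-04), scalings that moved the median of all genes from 0.03 to 0.43 and 0.51. The RNA level says nothing of the amount of p53 protein, which was not measured here.

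The feedback genes fell. Mdm2, the ubiquitin ligase that marks p53 for degradation (chromosome 10, 117688875 to 117710758), had 370.0, 325 and 378 CPM across Ctrl_MV replicates 1 to 3 against 151, 154 and 165 CPM across KD_MV replicates 1 to 3. Every KD_MV library held less than any Ctrl_MV library, with little spread within either group. Mdm2 averaged 358 ± 28.2 CPM in Ctrl_MV libraries and 157 ± 7.24 CPM in KD_MV libraries (SD, n = 3 per group), a 2.28-fold fall (a log2 change of -1.19, SE 0.10, adjusted p = 2.68e-05 in edgeR's test). Trp53inp1, a stress-induced nuclear protein that promotes p53 activity and autophagy (chromosome 4, 11156431 to 11174379), had 267, 272 and 283 CPM in Ctrl_MV and 74.6, 72.3 and 69.5 CPM in KD_MV, in the order of replicates 1 to 3. The libraries of each group were close together (coefficients of variation 3.05% and 3.52%), and the groups stood far apart. Its fall from 274 ± 8.37 to 72.1 ± 2.54 CPM was 3.80-fold (a log2 change of -1.93, SE 0.09, adjusted p = 1.53e-06), and this was the smallest adjusted p among the 10 genes.

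Ccng1 encodes cyclin G1, which recruits a phosphatase to Mdm2 (chromosome 11, 40748552 to 40755311). It had 185, 221 and 225 CPM across Ctrl_MV replicates 1 to 3 against 97.2, 92.3 and 117 CPM across KD_MV replicates 1 to 3. Its highest KD_MV value, in replicate 3, was still well under its lowest Ctrl_MV value. Ccng1, whose window with a decamer pair is printed above, fell from a mean of 210.2 ± 22.4 to one of 102 ± 13.1 CPM (a log2 change of -1.04, SE 0.13, adjusted p = 1.91e-04). Phlda3, a small lipid-binding protein that restrains the kinase Akt (chromosome 1, 135766119 to 135769136), was low: it had 25.2, 28.8 and 35.3 CPM in Ctrl_MV and 11.0, 9.91 and 7.31 CPM in KD_MV, again by replicate. The groups stood apart although the gene varied more within groups than most of the others (coefficients of variation 17.1% and 20.3%). Phlda3 fell from a mean of 29.7 ± 5.09 to one of 9.42 ± 1.92 CPM (a log2 change of -1.66, SE 0.19, adjusted p = 1.22e-04).

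The arrest genes fell as well. Cdkn1a (chromosome 17, 29090979 to 29100722) had 282, 295 and 341 CPM across Ctrl_MV replicates 1 to 3 against 139, 141 and 147 CPM across KD_MV replicates 1 to 3. The KD_MV libraries were close to each other, and all lay far below the Ctrl_MV libraries. The fall from 306 ± 30.8 to 142 ± 4.34 CPM (SD, n = 3 per group) was 2.15-fold (a log2 change of -1.10, SE 0.10, adjusted p = 4.64e-05 in edgeR's test). In the GENCODE M21 annotation 273 exonic bases of Cdkn1a (7.68% of its exonic length) overlap a gene on the opposite strand, AC167363.2, which has no row in the deposited table. No source used here gives the strand setting used in counting, and the share of reads that the overlap touches is not known. None of the other 9 genes shared exonic bases with another annotated gene.

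Btg2, an antiproliferative protein that promotes mRNA deadenylation (chromosome 1, 134075170 to 134079120), had 308, 300.1 and 293 CPM in Ctrl_MV and 168, 154 and 133 CPM in KD_MV, by replicate. Its Ctrl_MV libraries were nearly equal, and its change was the smallest among the 8 genes that fell (300.3 ± 7.59 to 152 ± 17.6 CPM, log2 change of -0.99, SE 0.11, adjusted p = 1.09e-04). Plk2, a polo-like kinase of centriole duplication and stress responses (chromosome 13, 110395044 to 110400844), had 1862, 1503 and 1589 CPM in Ctrl_MV and 479, 412 and 429 CPM in KD_MV, by replicate. No KD_MV library came near the Ctrl_MV range. Plk2 went from 1651 ± 187 to 439.8 ± 34.9 CPM, a 3.75-fold fall (a log2 change of -1.91, SE 0.12, adjusted p = 7.48e-06). The windows of these 2 genes, printed above, shared the cyclic AMP response element.

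Of the secreted and metabolic targets, Gdf15 fell most and Sesn1 did not pass the test. Gdf15, a secreted stress cytokine of the TGF-beta superfamily (chromosome 8, 70629393 to 70632456), had 1967, 1633.5 and 2105 CPM across Ctrl_MV replicates 1 to 3 against 539, 517 and 356 CPM across KD_MV replicates 1 to 3. The KD_MV libraries lay far below, with replicate 3 the lowest. Its fall from 1902 ± 242 to 471 ± 100.1 CPM (SD, n = 3 per group) was 4.04-fold and was the largest among the 10 genes (a log2 change of -2.01, SE 0.18, adjusted p = 3.62e-05), with 2.04% of tested genes having a lower log2 fold change. Sesn1, a sestrin that restrains the growth kinase complex mTORC1 (chromosome 10, 41809935 to 41908424), had 17.5, 18.5 and 17.9 CPM in Ctrl_MV and 22.9, 21.5 and 18.8 CPM in KD_MV, by replicate. The groups did not overlap, but KD_MV replicate 3 lay just above the highest Ctrl_MV library, and the difference did not pass (a log2 change of 0.23, SE 0.12, adjusted p = 0.126). Sesn1 passed without KD_MV replicate 3 (0.30, adjusted p = 0.0360), with library size only (0.64, adjusted p = 0.00186) and with limma on log2(TPM + 1) (0.73, adjusted p = 5.95e-04).

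**Figure D2:**
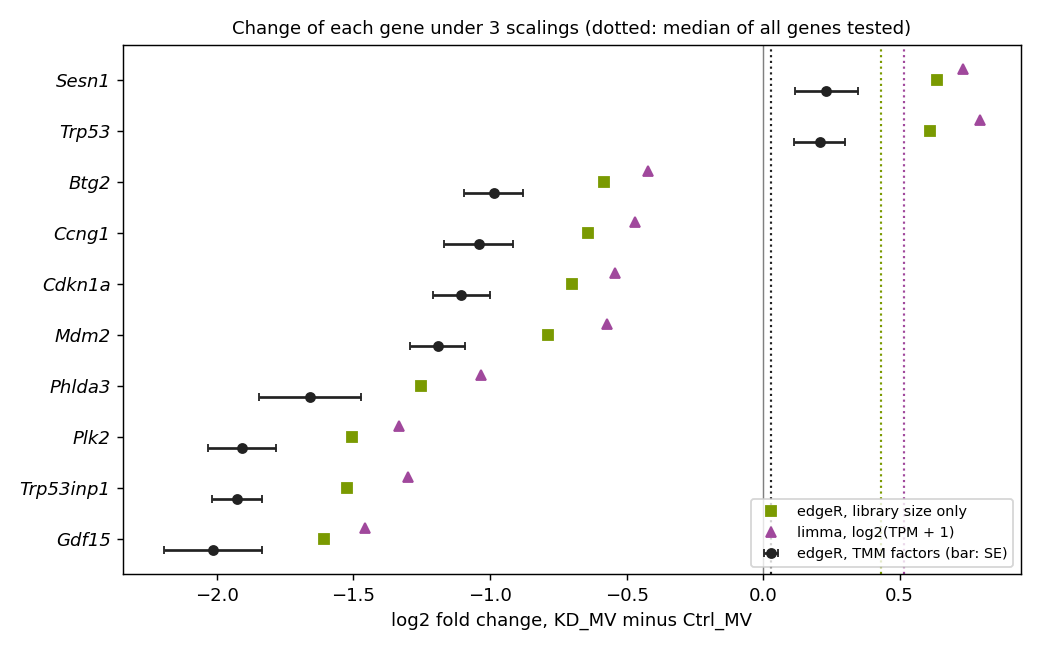
Log2 fold change of each gene (KD_MV minus Ctrl_MV) with edgeR and TMM factors (black, bars are SE), with edgeR and library size only (green) and with limma on log2(TPM + 1) (purple), ordered by the first. Dotted lines mark the median of all genes tested under each, at 0.03, 0.43 and 0.51, and 8 genes lie left of 0 under all 3 scalings.

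The 8 falls held under each of 18 alternatives in scaling, filter, test, fold threshold, replicate block, hemoglobin genes, halved counts and left-out libraries. Their sizes depended on scaling, as the plot of log2 fold changes shows. With limma on log2(TPM + 1) Btg2 was at -0.42 and Ccng1 at -0.47, whereas Gdf15 was at -1.46 and Plk2 at -1.33. Under these scalings the calls over all genes also shifted, from 4464 higher and 3995 lower with TMM factors to 7455 higher (46.4%) and 2010 lower (12.5%) with library size only and 7719 higher (57.4%) and 1228 lower (9.14%) with limma on log2(TPM + 1). Hemoglobin transcripts took 8.96 to 10.6% of counts in Ctrl_MV libraries and 1.02 to 1.18% in KD_MV libraries, and the 8 genes stayed called with the 4 hemoglobin genes left out before scaling. Leaving out these 4 genes does not remove other RNA of erythroid cells, whose part was not tested.

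Levels of different genes were compared by the deposited TPM values, which are divided by gene length. A difference in TPM between the groups includes the shift of the median gene given above. In Ctrl_MV the order ran from Gdf15 (1685 ± 210.4 TPM) and Plk2 (774 ± 104 TPM) through Cdkn1a (216 ± 16.7 TPM), Mdm2 (197 ± 15.5 TPM) and Btg2 (143 ± 7.18 TPM) to Ccng1 (78.3 ± 6.56 TPM), Trp53 (75.6 ± 2.65 TPM), Trp53inp1 (67.0 ± 0.787 TPM), Phlda3 (27.0 ± 3.95 TPM) and Sesn1 (8.68 ± 0.478 TPM). Of the neighbours in that order, Cdkn1a and Mdm2 overlapped, as did Ccng1 and Trp53. In KD_MV Gdf15 (619 ± 129 TPM), Plk2 (305 ± 16.8 TPM) and Cdkn1a (148 ± 7.56 TPM) still led. Trp53 (132 ± 10.8 TPM) had moved from rank 7 to rank 4, where its libraries overlapped those of Cdkn1a and Mdm2 (132 ± 8.26 TPM), and Btg2 (107 ± 11.1 TPM), Ccng1 (56.5 ± 7.68 TPM) and Trp53inp1 (26.6 ± 0.740 TPM) followed. Sesn1 (15.1 ± 1.21 TPM) and Phlda3 (12.7 ± 2.41 TPM) came last and overlapped. Gdf15 and Plk2 made up 68.8 ± 2.23% of the counts of the 10 genes in Ctrl_MV and 53.6 ± 3.53% in KD_MV.

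**Figure D3:**
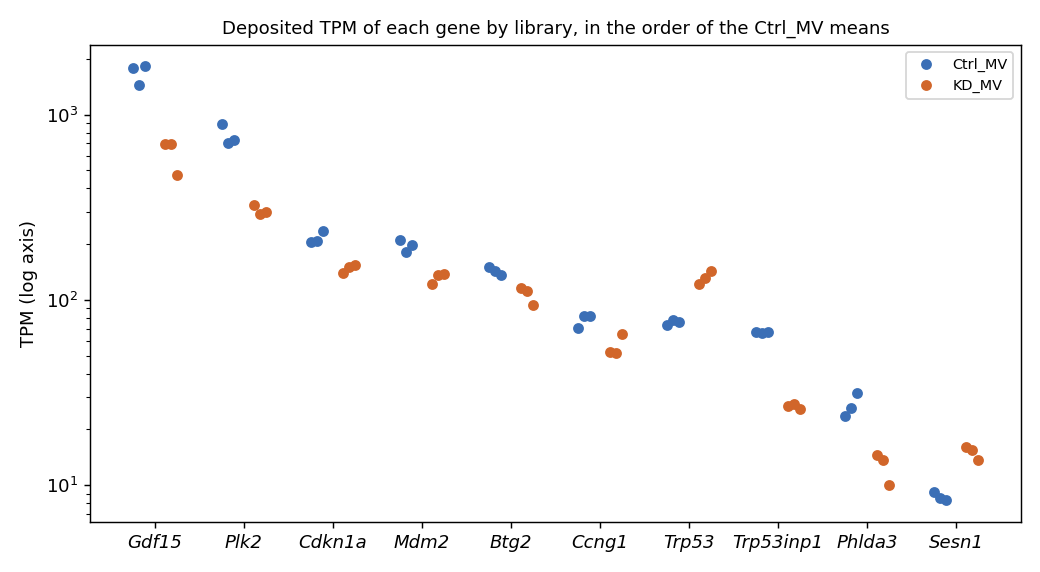
Deposited TPM of the 10 genes on a log axis, with 1 point per library and the genes in the order of their Ctrl_MV means. Trp53 is at 73.0 to 78.3 TPM in Ctrl_MV and 122 to 143 TPM in KD_MV, whereas Gdf15 goes from 1443 to 1823 TPM down to 469.6 to 696 TPM. On TMM-scaled counts the difference of Trp53 did not pass (adjusted p = 0.0941 in edgeR's test).

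A ratio of 2 genes within a library does not depend on how libraries are scaled, so each gene was also set against Trp53. The Mdm2 to Trp53 ratio of TPM was 2.90, 2.31 and 2.63 across Ctrl_MV replicates 1 to 3 against 1.01, 1.04 and 0.958 across KD_MV replicates 1 to 3. The Cdkn1a to Trp53 ratio was 2.82, 2.65 and 3.11 in Ctrl_MV and 1.15, 1.14 and 1.08 in KD_MV. Both transcripts thus stood above Trp53 in every Ctrl_MV library and near it in every KD_MV library. All 8 genes that fell had lower ratios to Trp53 in every KD_MV library than in any Ctrl_MV library, with differences of -1.22 (Btg2) to -2.26 (Gdf15) on the log2 scale. That separation, and the exact p of these genes below, was already fixed by the TPM values. In those the 8 genes were lower and Trp53 was higher in KD_MV without overlap, so the ratios are no separate evidence of the falls. The Sesn1 to Trp53 ratio averaged 0.115 ± 0.00990 among Ctrl_MV libraries and 0.115 ± 0.0181 among KD_MV libraries (SD, n = 3 per group), and the libraries overlapped. For each of the 8 the exact two-sided permutation p was 0.1, the smallest that 3 against 3 allows, and for Sesn1 the exact permutation p was 1. Over the 12 ratios computed, which were chosen after the levels were seen, the adjusted value of the exact p of 0.1 was 0.12.

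**Figure D4:**
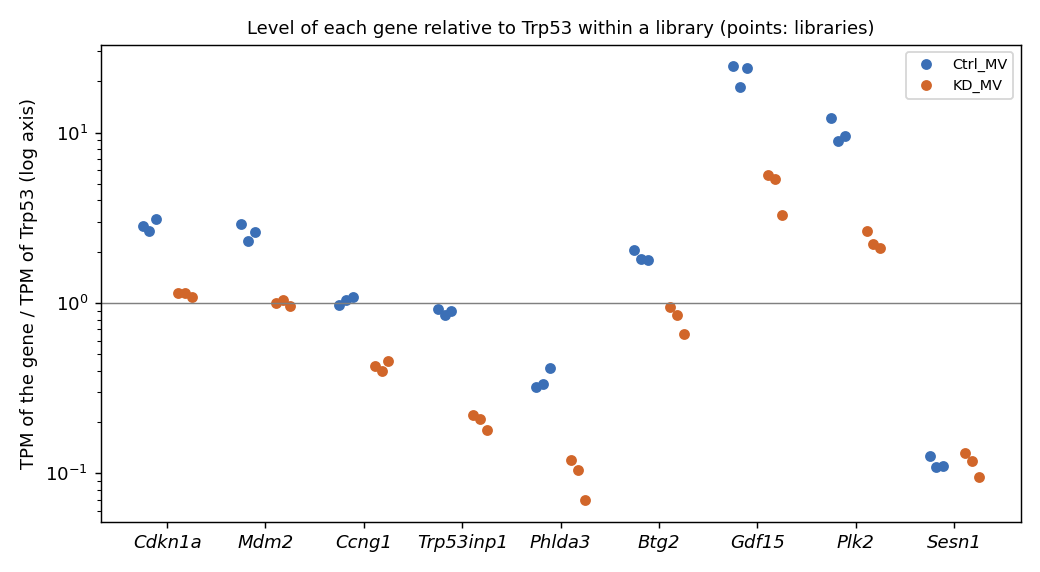
TPM of each gene divided by TPM of Trp53 in the same library, on a log axis, with 1 point per library. The KD_MV points lie below the Ctrl_MV points for 8 genes and among them for Sesn1, and the Mdm2 points go from 2.31 to 2.90 down to 0.958 to 1.04.

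Close relatives of the 10 genes moved in several ways. Of 18 listed paralogs 13 were tested, and 7 fell and 3 rose, beside 24.9% and 27.8% of all genes. Sesn2, a sestrin also induced by the integrated stress response, had 235, 247 and 233 CPM in Ctrl_MV and 22.7, 23.7 and 24.7 CPM in KD_MV, by replicate, which was a fall where Sesn1 had not passed (a log2 change of -3.33, SE 0.10, adjusted p = 2.47e-07 in edgeR's test). The Sesn1 to Sesn2 ratio of TPM accordingly went from 0.0968 ± 0.00502 to 1.15 ± 0.156 (SD, n = 3 per group; exact permutation p = 0.1). The third sestrin gene, Sesn3, passed as higher (0.27, SE 0.10, adjusted p = 0.0406), but it did not pass with any of the 6 libraries left out (0.23 to 0.30) or with DESeq2 (0.24, adjusted p = 0.0717). Mdm4, the relative of Mdm2 that binds p53 without degrading it, fell from a mean of 228 ± 16.8 to one of 128 ± 4.75 CPM (-0.83, SE 0.10, adjusted p = 1.46e-04), but it did not pass with limma on log2(TPM + 1) (-0.13, adjusted p = 0.326). The Mdm2 to Mdm4 ratio of TPM was 3.82 ± 0.514 in Ctrl_MV and 2.80 ± 0.400 in KD_MV (exact permutation p = 0.1). Its groups nearly touched, at 3.26 in Ctrl_MV replicate 2 and 3.24 in KD_MV replicate 3.

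Btg1 (-1.38), Phlda1 (-1.37) and Plk3 (-1.13) fell, as their relatives among the 10 genes did (log2 fold changes in parentheses, here and below). Trp53inp2 fell too (-0.74), but it did not pass with limma on log2(TPM + 1) (-0.10, adjusted p = 0.424). The direction of Btg3 depended on scaling. It was called lower with TMM factors (-0.40, SE 0.13, adjusted p = 0.0300), and it was at 0.0065 with library size only and 0.18 with limma on log2(TPM + 1). It also lost its call when Ctrl_MV replicate 2 or 3 or KD_MV replicate 1 or 2 was left out (-0.42 to -0.33). The polo-like kinases of mitosis and centriole duplication, Plk1 (1.18) and Plk4 (0.71), rose where Plk2 fell. The cyclin-dependent kinase inhibitor Cdkn1b (-0.30, SE 0.13, adjusted p = 0.0958) passed only without KD_MV replicate 3 (-0.44, adjusted p = 0.0118), and it was at 0.11 with library size only. Cdkn1c (-0.62, SE 0.32, adjusted p = 0.137) did not pass, at means of 0.485 and 0.314 CPM. Ccng2 did not pass (-0.01, SE 0.13, adjusted p = 0.939), but it was called higher with library size only (0.39, adjusted p = 0.0272) and with limma on log2(TPM + 1) (0.51, adjusted p = 0.00562). These scalings called 46.4% and 57.4% of all genes higher, and Ccng2 lay near their median gene given above. The p53 relatives Trp63 and Trp73 were too low to test, as were Phlda2, Btg4 and Plk5.

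Other genes of the pathway were counted in 5 lists. Of the p53-induced death genes, 10 of 16 fell and 3 rose, beside 24.9% and 27.8% of all genes (median log2 fold change -0.59). Bbc3, the BH3-only protein PUMA, had 80.7, 94.9 and 87.0 CPM in Ctrl_MV and 19.5, 20.8 and 16.1 CPM in KD_MV, by replicate (-2.22, SE 0.13, adjusted p = 4.04e-06 in edgeR's test). The death receptor gene Fas (-0.92), the BH3-only gene Pmaip1 (-0.91) and the receptor gene Eda2r (-3.06, at 1.98 CPM in Ctrl_MV) also fell. With limma on log2(TPM + 1) 5 of these death genes fell and 5 rose, beside 9.14% and 57.4% of all genes.

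Of the repair and metabolism targets 8 of 18 rose and 5 fell, beside 27.8% and 24.9% of all genes (median 0.11), so the share that fell was near that of all genes. Gadd45a, a stress sensor of growth arrest and repair, had 272, 269.8 and 252 CPM in Ctrl_MV and 48.9, 50.7 and 45.4 CPM in KD_MV, by replicate (-2.45, SE 0.10, adjusted p = 9.75e-07), and the thiamine transporter gene Slc19a2 (-1.80) fell beside Sesn2. Tigar, a phosphatase that lowers glycolytic flux, rose (1.62). Of the regulators of p53 7 of 19 rose and 5 fell, which is near the 27.8% and 24.9% of all genes (median 0.21). The DNA damage kinases Chek2 (1.90) and Atm (1.17) rose, whereas the acetyltransferase gene Kat5 (-1.03) and the deacetylase gene Sirt1 (-1.37) fell. With library size only 11 regulators rose and 4 fell, beside 46.4% and 12.5% of all genes.

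Of the cyclin-dependent kinase inhibitors and other growth arrest genes, 9 of 19 fell and 2 rose, beside 24.9% and 27.8% of all genes (median -0.62), with Klf6 (-1.58), Btg1 (-1.38), Plk3 (-1.13) and Gadd45b (-1.33) having the smallest p. Scaled by library size alone, 6 of the list fell and 5 rose, beside 12.5% and 46.4% of all genes. The last list held genes that p21 represses through the DREAM complex, a repressor of cell cycle genes. Of these 19 of 20 rose and 0 fell, beside 27.8% and 24.9% of all genes (median 1.31), and 0 were lower at an unadjusted p under 0.05, with DESeq2 or with limma-voom. Mybl2, a cell cycle transcription factor, had 5.85, 6.72 and 5.18 CPM in Ctrl_MV and 44.1, 47.8 and 50.8 CPM in KD_MV, by replicate (3.01, SE 0.14, adjusted p = 1.32e-06). The kinase subunit gene Cks1b (2.37), the mitotic kinase gene Aurkb (2.84) and Birc5, encoding survivin (2.16), rose with it. The granulocyte precursor, B-lineage and eosinophil markers given above were higher in the same libraries. The part of those cell types in these rises was not tested, and neither was that of p21 or the DREAM complex.

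**Figure D5:**
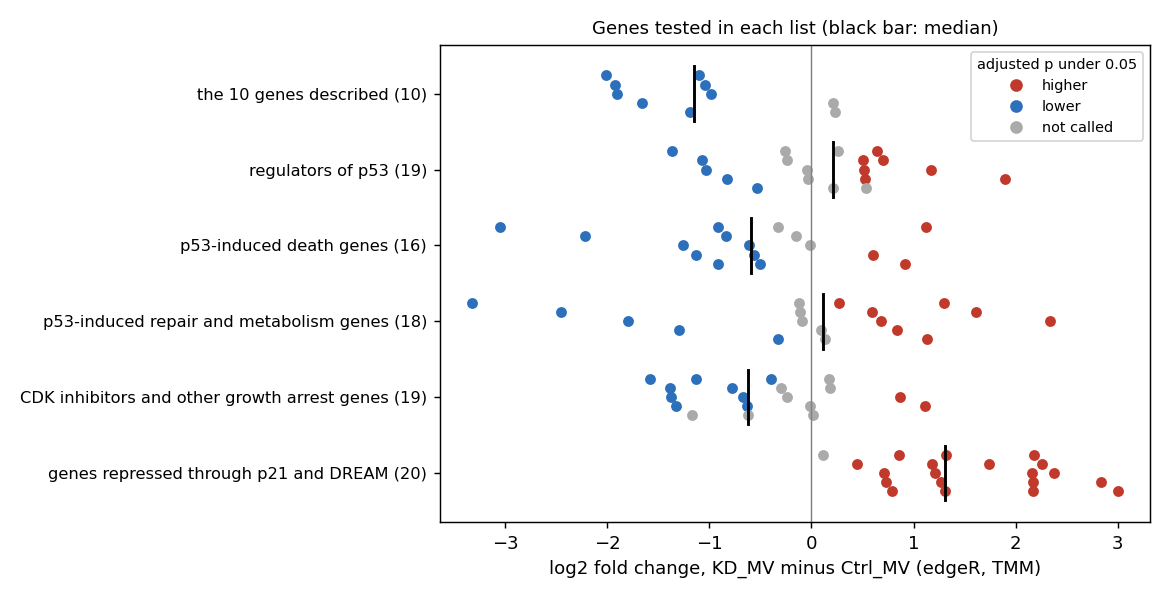
Log2 fold change (KD_MV minus Ctrl_MV, edgeR with TMM factors) of each tested gene of the 10 genes described and of 5 further lists, 1 point per gene, red for higher, blue for lower and grey for genes that did not pass, with a black bar at the median. The medians run from -1.15 for the 10 genes to 1.31 for the genes repressed through p21 and DREAM.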

How the data were processed

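The deposited table held raw counts, TPM and FPKM per gene and library; the columns are named so per the file headers. The submitters' processing notes name featureCounts, Subread, Trim Galore and the mm10 build, with no version, role or strand setting in the sources used here. The deposited counts were not normalized. The TPM values, scaled by the authors to gene length and library, summed to between 999842 and 999905 per library. FPKM values were not used. The 3 libraries of each group were compared as labelled.

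The test was the two-sided quasi-likelihood F test of edgeR 4.0.16 (R 4.3.3; glmQLFit, glmQLFTest) between the groups, with TMM factors, on genes kept by filterByExpr at min.count 10 and min.total.count 15. Its p-values were adjusted by Benjamini-Hochberg over the 16071 tested genes, those of an alternative over the genes it tested (13439 with limma on log2(TPM + 1), 16415 to 16653 with a library left out), and exact p-values of ratios over the 12 ratios. Each SE is the size of the log2 fold change divided by the root of its F. Alternatives used limma 3.58.1, DESeq2 1.42.0, other scalings and filters, and left-out libraries. The members and lists were chosen with earlier results of these data known. Named genes were the 10 members, the tested paralogs and the 4 genes with the smallest p of each list. The symbol Cop1 matched no row. Positions are those of the deposited table, and exon overlaps come from GENCODE M21.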

Additional observations from a re-analysis of the deposited data

How the results depend on the processing

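All 8 falls among the 10 genes passed, in the same direction, under each of the 18 alternatives, and 175 of the 180 gene and setting combinations kept their call. With library size only, 7455 genes (46.4%) were higher and 2010 (12.5%) lower. Of the 10 genes 2 (Trp53 and Sesn1) were higher, and 11 p53 regulators and 5 growth arrest genes were higher. With limma on log2(TPM + 1), 7719 genes (57.4%) were higher and 1228 (9.14%) lower. The same 2 of the 10 genes were higher, and 12 regulators were higher and 2 lower. Death genes were higher in 5 cases and lower in 5, and growth arrest genes higher in 6 and lower in 5. Against a fold of 1.5, 2180 of 16071 genes were higher and 1705 lower. There 2 of 19 regulators and 3 of 18 repair and metabolism genes were higher, and 5 of 19 growth arrest genes were lower. The causes were not tested beyond the shift of the median gene given above.

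The same alternatives, added after the data were seen, were applied to the paralogs and other named list genes, and the 305 values of the latter kept their call. Among 231 values of 13 paralogs 10 turned in direction. Btg3 turned with library size only (0.0065) and limma on log2(TPM + 1) (0.18), and Cdkn1b with the same (0.11 and 0.18). Ccng2 turned with these (0.39 and 0.51), with upper-quartile scaling (0.0081), with no filter (0.043) and with some of the libraries left out. Over all fits with a library left out Ccng2 ran from -0.089 to 0.088, against -0.014 with all libraries. In 21 values Sesn3, Btg3, Trp53inp2, Plk4 or Mdm4 lost its call.

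With each library left out in turn, 3809 to 4494 genes were higher and 3478 to 4216 lower, 0 to 1 of the 10 genes were higher and 8 to 8 lower. The repair and metabolism genes that were higher numbered 5 to 7, against 8 with all libraries, and were 5 without Ctrl_MV replicate 1, KD_MV replicate 1 or KD_MV replicate 2. The 1 gene higher was Sesn1, without KD_MV replicate 3. With the replicate number as a block, 4123 genes were higher and 3676 lower, the calls of the 10 genes did not change, and Btg3 (adjusted p = 0.0584) and Sesn3 (adjusted p = 0.0988) no longer passed. Same-numbered libraries did not deviate together (correlations over genes of -0.0067, -0.079 and -0.054 for numbers 1, 2 and 3), and 0 of 3 Ctrl_MV libraries correlated best with its own number. Low counts were even more often than odd (55.5 to 57.9% of counts from 1 to 20), and halving the counts changed no call of the 10 genes.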

Other observations

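Within groups the 10 genes differed in spread. The coefficient of variation of TMM-scaled CPM in Ctrl_MV ran from 2.53% for Btg2 to 17.1% for Phlda3, and in KD_MV from 3.05% for Cdkn1a to 21.2% for Gdf15. Wrap53, which lies beside Trp53 and encodes a telomerase and Cajal body protein whose antisense transcripts regulate p53 RNA in human cells, averaged 16.2 CPM in Ctrl_MV libraries and 23.1 CPM in KD_MV libraries (a log2 change of 0.51, SE 0.13, adjusted p = 0.00879 in edgeR's test). Its exons shared no bases with those of Trp53 in GENCODE M21. The Trp53 to Wrap53 ratio of TPM was 6.34 ± 0.163 among Ctrl_MV libraries and 5.47 ± 1.14 among KD_MV libraries (SD, n = 3 per group), with overlapping libraries and an exact two-sided permutation p of 0.4 (adjusted 0.436 over 12 ratios). Wrap53 was chosen here after its value was seen.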
